A study of Drosophila melanogaster with 8 samples.

Results

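Chromosome 4 is the dot chromosome of Drosophila melanogaster, and its H3K27me3 profile was read here in 1233 windows of 1 kb, out of 126378 windows over all sequences of the dm3 build. The windows were taken by position alone, as every deposited row of chromosome 4 that starts 500 bp into a kb. Chromatin came from whole testes of 3-day-old adult males kept at 23 °C and homozygous for either a can or a comr mutation, with 400 testes as starting material. Each genotype had 2 H3K27me3 immunoprecipitates and 2 inputs, 8 samples in 4 groups, and both replicates of a genotype stand behind 1 deposited profile. The alleles are not named in the labels, every group carries 1 of the 2 mutations, and no wild-type profile was analysed here. Labels and files give neither a measurement of RNA nor a count of cells, so the labelled tissue was not checked against marker genes.

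H3K27me3 is written on nucleosomes by Polycomb repressive complex 2 and covers silent developmental genes in broad domains. Chromosome 4 is packaged differently from the other chromosomes: it is small, rich in repeats, bound along much of its length by heterochromatin protein HP1a and marked by H3K9 methylation, and its genes are also bound by the chromosome-specific protein POF. It nevertheless carries active genes and a few developmental regulators. The product of can resembles TBP-associated factors and is made in testes, that of comr belongs to the testis meiotic arrest complex, and germ cells of both mutants stop as spermatocytes. The RefSeq table at hand lists 114 genes on chromosome 4, 80 of them protein-coding, but follows Release 6 of the genome. No gene was therefore placed on the dm3 windows, and regions are named by position in kb.

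The value in each window is the deposited score, H3K27me3 over input after a normalization step that gave both profiles the same set of values. A score of 0 is the median of all deposited rows in both profiles. Neither labels nor headers give the base of the scale, so differences of scores are reported and never folds. Read depth behind a score is unknown. A single profile stands for each genotype, which leaves no replicate to compare and no p-value to give. Each standard error (SE) below is taken over windows or bins of a single profile and describes scatter along the chromosome, not spread between animals or libraries. More cells of a type with the mark and more of the mark per cell cannot be told apart in whole testes.

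Chromosome 4 had a low H3K27me3 score in both mutants, and a lower one in comr. The mean over its windows was -0.35 ± 0.04 in can and -0.53 ± 0.05 in comr (SE over 25 bins of 50 kb). In can 71.9% of the windows were below 0, and in comr 80.1%. Ranked among the 114670 windows of X, 2L, 2R, 3L, 3R and 4, the median window of chromosome 4 stood at percentile 24.8 in can and 15.8 in comr. Low windows were thus frequent and high ones scarce. The bottom 10% of windows on those 6 sequences, which took in 10.3% of windows in can and 10.2% in comr, held 355 of the 1233 windows in can (28.8%, 95% Wilson interval 26.3 to 31.4) and 487 in comr (39.5%, interval 36.8 to 42.3). The top 10%, which took in 10.1% in can and 10.3% in comr, held 49 in can (3.97%, interval 3.02 to 5.22) and 24 in comr (1.95%, interval 1.31 to 2.88). Such intervals cover counting error alone and take windows as independent. Both profiles had 191 windows in the bottom 10% (15.5%, against 2.53% over the 6 sequences) and 6 in the top 10% (0.49%, against 2.51%).

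The low background was broken by short stretches in which the score rose to about 0 or above in both mutants. The median 10 kb bin scored -0.38 in can and -0.60 in comr, over 127 bins with at least 5 windows. A local high was a bin at least 0.3 above that median in each profile, that is at -0.079 or more in can and -0.30 or more in comr. There were 22 such bins, 17.3% of those measured, in 11 stretches of 10 to 40 kb. The limit is a mild one, since the SD over the 10 kb bins was 0.32 in can and 0.35 in comr. The share of bins passing such a limit on the other chromosomes is not given here, so the highs are not shown to be particular to chromosome 4. The bin nearest above this limit, from 750 to 760 kb, had -0.03 in can against -0.30 in comr. The bin nearest below it, its neighbour from 760 to 770 kb, scored -0.09 and -0.32. A mean above 0 in both profiles was reached by 13 bins (10.2%), where 37.5% of the 10 kb bins of the 6 sequences reached it. The 22 highs themselves averaged 0.18 in can and 0.02 in comr, close to the genome's median of 0.

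**Figure D1:**
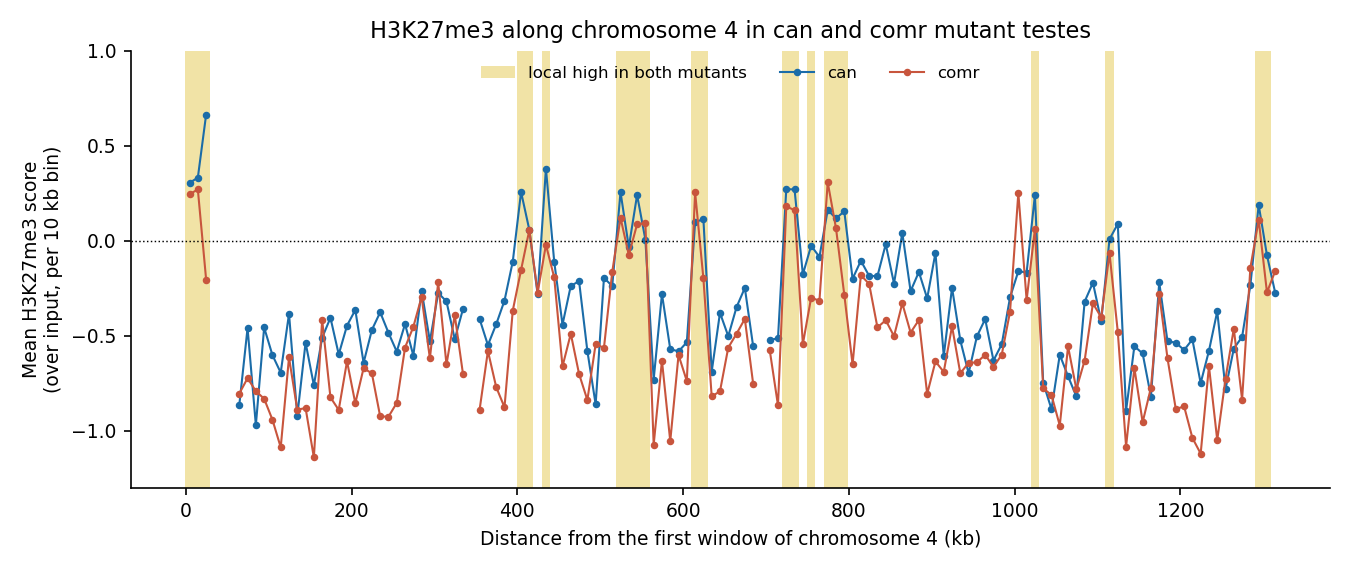
Mean H3K27me3 score (vertical axis) in 10 kb bins of chromosome 4 against distance from the first window in kb, for can (blue) and comr (red); each point is 1 bin with at least 5 windows, and breaks are bins with fewer. The 11 shaded stretches hold the 22 bins that are local highs in both mutants, and most other bins lie below 0, with comr under can.

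The highs lay largely at the same places in both mutants. Of the 26 bins that passed the limit in can, 22 (84.6%) also passed it in comr, and of the 33 that passed in comr, 22 (66.7%) also did in can. Each profile can be read at bins chosen from the other alone. The 26 bins chosen in can had a mean of -0.05 ± 0.05 in comr, against -0.64 ± 0.03 in the remaining 101 bins (SE over bins), and 25 of the 26 were above the median bin of comr. The 33 bins chosen in comr had a mean of 0.05 ± 0.04 in can, against -0.47 ± 0.02 in the other 94, and all 33 were above the median bin of can. The separation was 0.59 and 0.52, several times larger than these standard errors.

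Several highs lay in the middle of the chromosome, and they are taken in order of position. Between 400 and 560 kb, 3 stretches followed each other. The first, from 400 to 420 kb, averaged 0.16 ± 0.12 in can and -0.05 ± 0.09 in comr (SE over 20 windows). It contains the window with the highest mean of both profiles on the chromosome, from 411050 to 412049, at 1.60 in can and 0.96 in comr. A single bin from 430 to 440 kb reached 0.38 ± 0.34 in can, while comr stood at -0.02 ± 0.15. Its value in can rested largely on 1 window at 2.44, the highest of that profile on the chromosome. The longest high, from 520 to 560 kb, had a broad and moderate rise, with 0.12 ± 0.07 in can and 0.06 ± 0.07 in comr over 40 windows. Of these windows, 25 were above 0 in can, 23 in comr and 16 in both. A drop followed at once, since the bin from 560 to 570 kb, among the 5 lowest of the chromosome, had -0.73 ± 0.18 in can against -1.07 ± 0.39 in comr. This bin holds 1 window at -4.09 in comr, the lowest of that profile on the chromosome, and at -0.71 in can. Its rank without that window was not computed.

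More highs lay between 610 and 800 kb. From 610 to 630 kb the score was 0.11 ± 0.13 in can and 0.03 ± 0.14 in comr, and this stretch held 3 of the 6 windows that were in the top 10% of both profiles. Its 2 bins moved apart, since comr was above can from 610 to 620 kb (0.10 in can, 0.26 in comr) and below it from 620 to 630 kb (0.11 and -0.20). From 720 to 740 kb the score was 0.27 ± 0.12 in can and 0.17 ± 0.11 in comr, the highest comr mean among the 11 stretches. The bin from 770 to 780 kb carried the highest comr score of any 10 kb bin, 0.31 ± 0.15, with 0.16 ± 0.15 in can. With its neighbours up to 800 kb it averaged 0.15 ± 0.07 in can and 0.03 ± 0.09 in comr. Among the 50 kb bins with at least 25 windows, the 3 highest all lay between 400 and 800 kb. They were those from 750 to 800 kb (0.06 ± 0.05 in can, -0.10 ± 0.06 in comr), 400 to 450 kb (0.05 ± 0.09 and -0.12 ± 0.07) and 500 to 550 kb (0.01 ± 0.08 and -0.12 ± 0.07). The first 50 kb, with 20 windows, stood higher and is described with the ends. None of those 25 bins was above 0 in comr, and 3 were in can.

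Further along, the highs were single bins or close to the end. At 1020 to 1030 kb the can score was 0.24 ± 0.16 and that of comr 0.06 ± 0.14. The bin from 1110 to 1120 kb scored 0.01 ± 0.05 and -0.07 ± 0.14, and none of its 10 windows was in the top 10% of a profile. The last high, from 1290 to 1310 kb, averaged 0.07 ± 0.15 in can and -0.07 ± 0.12 in comr over 13 windows. In every one of the 11 stretches the mean of comr was below that of can, by 0.06 to 0.40, and each of these 11 differences was under 2 SE over windows. The limit for a high was lower in comr than in can, so a deficit in these stretches partly follows from their choice. High windows did not join into long domains. When windows in the top 10% were joined across gaps of at most 3 kb, chromosome 4 held 7 stretches of at least 5 kb in can and 2 in comr, none longer than 8 kb. Joining takes in lower windows, so the stretches called in can averaged 0.20 to 0.48 there, below the cutoff of 0.72. The number and length of such stretches on the other chromosomes are not given here. A single pair overlapped, with the can call from 771050 to 776049 and the comr call from 772050 to 778049.

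Bins directly next to a high averaged -0.32 ± 0.06 in can and -0.49 ± 0.07 in comr (SE over 17 bins), against 0.18 ± 0.04 and 0.02 ± 0.04 in the 22 highs themselves, which were chosen for high scores. The neighbours are bins that failed the limit, so a drop beside a high follows from the choice. At 20 kb the means were -0.42 and -0.59, and in the 45 bins at 60 kb or more they were -0.47 ± 0.03 and -0.69 ± 0.03. The means at 60 kb or more were below those beside a high in both mutants.

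The longest stretch without a local high ran from 30 to 400 kb, with -0.50 ± 0.03 in can and -0.72 ± 0.03 in comr over 329 windows. A gap of 23 kb without rows lies at its start. Its bin from 340 to 350 kb had 3 windows, too few to be judged as a high, at 0.29 ± 0.38 in can and -0.51 ± 0.60 in comr. Of the 3 lowest 50 kb bins, 2 lay in this stretch. These were 50 to 100 kb, at -0.73 ± 0.11 in can against -0.82 ± 0.10 in comr, and 100 to 150 kb, with -0.63 ± 0.08 and -0.88 ± 0.10. The other was 1200 to 1250 kb, near the far end, with -0.56 ± 0.09 and -0.95 ± 0.06. Among 10 kb bins, the lowest by the mean of both profiles was 1130 to 1140 kb, at -0.89 ± 0.24 in can and -1.08 ± 0.18 in comr. It lay 10 kb beyond a local high. The bins from 150 to 160 kb (-0.76 and -1.14), 1220 to 1230 kb (-0.75 and -1.12) and 130 to 140 kb (-0.92 and -0.89) came next.

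The interval from 800 to 900 kb, which was not named by rule, averaged above the median bin in both mutants without holding a local high. It scored -0.16 ± 0.06 in can and -0.45 ± 0.05 in comr over 98 windows, and all 10 of its bins were lower in comr. In comr the bins from 800 to 810 kb (-0.65) and 890 to 900 kb (-0.81) were below the median bin (-0.60). The interval lies within the longest run of neighbouring 10 kb bins with comr below can, 16 bins from 780 to 940 kb. The deficits within that run were 0.04 to 0.57.

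**Figure D2:**
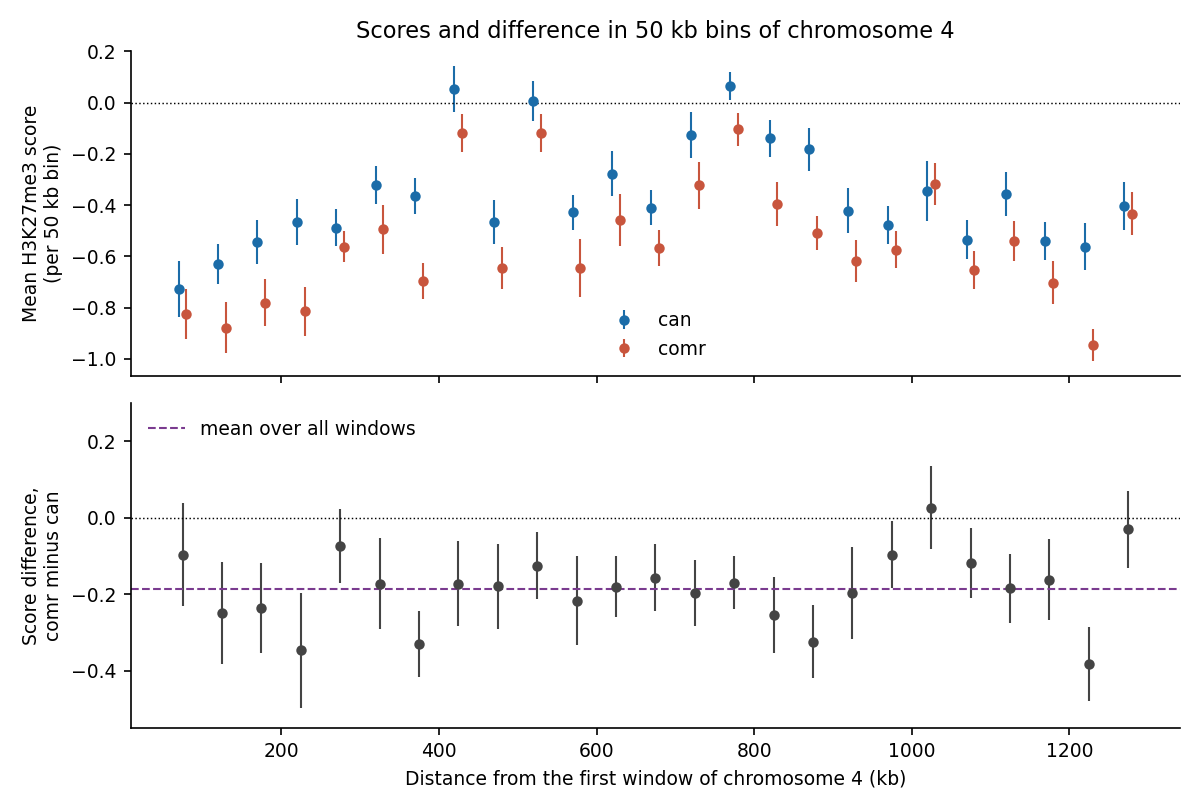
Upper panel, mean H3K27me3 score in 50 kb bins of chromosome 4 against distance from the first window in kb, for can (blue) and comr (red); lower panel, the difference comr minus can in the same bins, with the mean over all windows (-0.19) as a dashed line. Bars are standard errors over the windows of a bin; 24 of 25 bins lie below 0 in the lower panel.

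At the start of the chromosome an isolated high preceded the long low stretch. The first 30 kb scored 0.41 ± 0.09 in can and 0.14 ± 0.14 in comr over 20 windows, with 17 windows above 0 in can and 16 in comr. From 0 to 10 kb can reached 0.31 ± 0.12 and comr 0.25 ± 0.05, and the bin from 10 to 20 kb had 0.33 ± 0.15 and 0.27 ± 0.19. By the mean of both profiles these were the 2 highest 10 kb bins of the chromosome. From 20 to 30 kb the mutants parted, with 0.66 ± 0.19 in can and -0.20 ± 0.45 in comr. That bin had only 5 windows, and its difference of -0.87 ± 0.59 was under 2 SE. A gap of 23 kb without deposited rows separated this high from the next windows, which were at the bottom of the range. In all, 36 of the first 60 kb had no row.

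The other end of the chromosome rose less. Its last 50 kb of mapped windows, ending with the row at 1322500, scored -0.19 ± 0.08 in can and -0.19 ± 0.07 in comr over 36 windows. No difference was resolved there, at 0.00 ± 0.08, against -0.19 over the whole chromosome. Widened to 100 kb, the end averaged -0.41 in can against -0.54 in comr, and the difference was -0.12 ± 0.07. The final bin of the 50 kb grid, from 1300 kb on, had 13 windows and scored -0.15 ± 0.13 and -0.20 ± 0.12. Rows were sparse at both ends, with 13 kb lacking one from 1290 kb on. Bins of 10 kb with missing rows scored somewhat higher than complete ones, at -0.26 against -0.36 in can and -0.48 against -0.53 in comr (23 and 104 bins). Their part in the scores at the ends was not tested.

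The lower score of comr was spread along most of the chromosome. A deficit over 2 SE was reached in only 10 of the 25 bins of 50 kb, so most single bins did not resolve it. Places with a difference near 0 included the last 50 kb (0.00 ± 0.08) and 1030 to 1110 kb (-0.07 ± 0.09, 4 of 8 bins lower). The latter holds 1 window at -4.23 in can and -0.53 in comr. The mean difference, comr minus can, was -0.19 ± 0.02 (SE over 25 bins of 50 kb). In 24 of the 25 bins of 50 kb comr was lower (96.0%), where 52.1% of such bins over the 6 sequences were. In 10 kb bins it was lower in 102 of 127 (80.3%, against 51.9%), higher in 24 and equal in 1. When the mapped length was divided into 5 equal parts, the differences in order were -0.23, -0.19, -0.18, -0.18 and -0.16, with standard errors over windows of 0.04 to 0.06. The largest and the smallest of these overlap within their standard errors.

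The shift was present at low, middle and high scores, with smaller values in the high range of the 10 kb bins. Across 50 kb bins a straight line of comr on can had a slope of 1.002 and an intercept of -0.18, and one of can on comr a slope of 0.82, with r = 0.91 (Spearman's rho = 0.91, n = 25 bins of 1 chromosome, which share libraries and normalization). Across 10 kb bins the slope was 0.87 and r was 0.80 (rho = 0.78, n = 127). With 10 kb bins ordered by the mean of both profiles and divided into low, middle and high groups, the differences were -0.21 ± 0.03 (43 bins), -0.21 ± 0.03 (41 bins) and -0.14 ± 0.03 (43 bins). Inside the local highs the difference over windows was -0.15, with 18 of 22 bins lower in comr, and outside them it was -0.19, with 84 of 105 lower. The standard errors over bins were 0.05 and 0.02. The limit for a high was itself lower in comr (-0.30) than in can (-0.079). A deficit inside the highs thus partly follows from their choice. Whether the shift differs between highs and background cannot be decided from these bins. The percentiles of the windows were lower in comr throughout. The 10th percentile was -1.09 in can and -1.27 in comr, the median -0.34 and -0.53, and the 90th percentile 0.38 and 0.25. On the arms 2L, 2R, 3L and 3R the corresponding percentiles of the mutants differed by at most 0.02, which the normalization to 1 set of values largely fixes, since these arms hold 92506 of the 126378 windows.

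**Figure D3:**
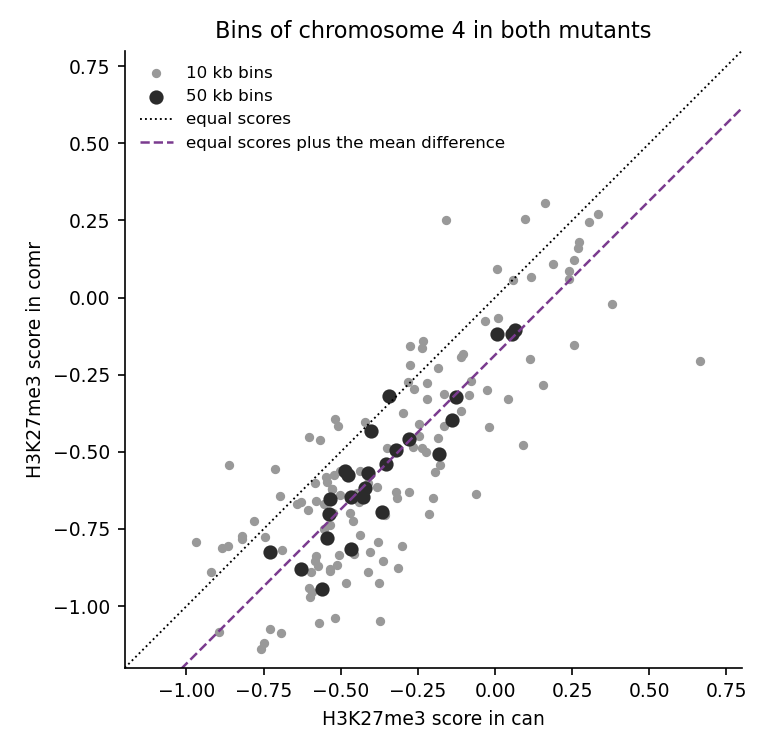
H3K27me3 score in comr (vertical axis) against can (horizontal axis) for 127 bins of 10 kb (grey) and 25 bins of 50 kb (black) of chromosome 4. The dotted line marks equal scores and the dashed line equal scores shifted by the mean difference of -0.19; the 50 kb bins follow the dashed line over their whole range.

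**Figure D4:**
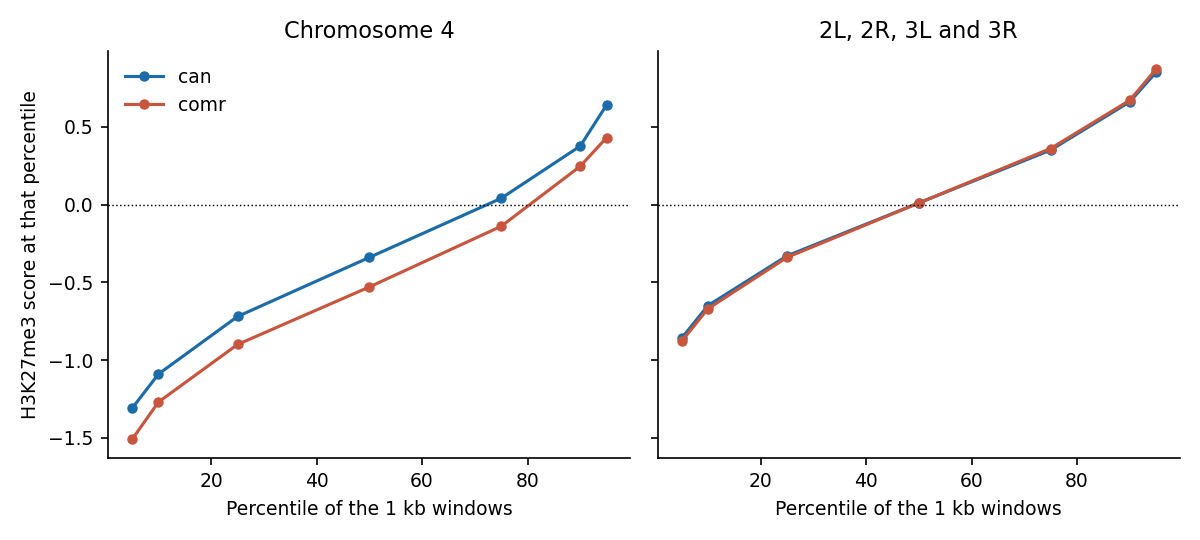
H3K27me3 score at the 5th to 95th percentile of the 1 kb windows of chromosome 4 (left) and of the arms 2L, 2R, 3L and 3R (right) in can (blue) and comr (red). The curves lie 0.13 to 0.21 apart on chromosome 4 and within 0.02 on the arms, where the normalization largely fixes their agreement.

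Between bins the difference varied no more than the scatter of windows would give it. Its SD over the 25 bins of 50 kb was 0.097, and the median SE of such a difference over the windows of a bin was 0.099. Over 10 kb bins the SD was 0.214 and the median SE 0.212. On 2L, 2R, 3L and 3R together the SD exceeded the SE, at 0.132 against 0.085 in 1915 bins of 50 kb, and on X it was 0.174 against 0.123 in 440 bins. Of the 25 bins on chromosome 4, 24 lay within 2 SE of the chromosome's mean difference. The bin that did not, 1200 to 1250 kb, had the largest deficit, -0.38 ± 0.10. Deficits over 2 SE occurred in 10 of the 25 bins (40.0%, against 11.3% over the 6 sequences) and excesses over 2 SE in 0 (against 8.70%).

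At 10 kb, 121 of 127 bins lay within 2 SE of the chromosome's mean difference. Set against 0, the difference was a deficit over 2 SE in 13 of 127 (10.2%, against 6.78%) and an excess over 2 SE in 1 (0.79%, against 5.77%). That excess lay from 1000 to 1010 kb, where can stood at -0.16 ± 0.12, comr at 0.25 ± 0.13 and the difference at 0.41 ± 0.13. The surrounding 50 kb bin, from 1000 to 1050 kb, was the one bin of 25 in which comr was not lower, at -0.34 in can and -0.32 in comr. Its difference was only 0.03 ± 0.11. The bin also holds the lowest can window of the chromosome, from 1042050 to 1043049, at -4.23 in can and -0.53 in comr. Whether comr is the higher there without that window was not tested. The next largest excesses, 0.32 ± 0.24 from 490 to 500 kb and 0.18 ± 0.19 from 80 to 90 kb, were under 2 SE. Bins higher in comr were scattered, with never more than 2 of them side by side. Apart from the sparsely filled bin at 20 to 30 kb, the largest deficits were -0.68 ± 0.32 from 1240 to 1250 kb, -0.57 ± 0.36 from 900 to 910 kb, -0.57 ± 0.19 from 1120 to 1130 kb and -0.56 ± 0.18 from 380 to 390 kb. The bin from 1120 to 1130 kb adjoins a local high and continued it in can alone, at 0.09 ± 0.17 against -0.48 ± 0.12 in comr.

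Segments of the same length on the other chromosomes give the scale of this shift. X, 2L, 2R, 3L and 3R were divided into 92 consecutive segments of 25 bins of 50 kb. In those segments comr was lower in 4 to 21 of the 25 bins, with a median of 13, against 24 on chromosome 4. Their mean differences ran from -0.16 to 0.09, against -0.19, and their SDs of the difference from 0.092 to 0.251, against 0.097. The ratio of that SD to the median SE was 1.01 to 2.22 in the segments and 0.98 on chromosome 4. The lowest segment, on 2R from 0 to 1250 kb, stood at -0.34 in both mutants. In can this nearly matched chromosome 4, at -0.36 over these bins and -0.35 ± 0.04 over all its windows. In comr chromosome 4 was lower than every segment, at -0.55 over these bins. The heterochromatin sequences 2LHet, 2RHet, 3LHet and 3RHet are not among the segments. They were also low, averaging -0.28 in can and -0.19 in comr over 5609 windows. There comr was the higher, by 0.09, and it was lower in 30 of 132 bins of 50 kb (22.7%). The segment with the largest deficit, on X from 18850 to 20200 kb, differed by -0.16 with 18 of 25 bins lower in comr. No test of these differences was possible with 1 profile per genotype. Because both profiles hold the same values after normalization, a lower score on chromosome 4 is offset by higher scores elsewhere and is relative to the rest of the genome.

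**Figure D5:**
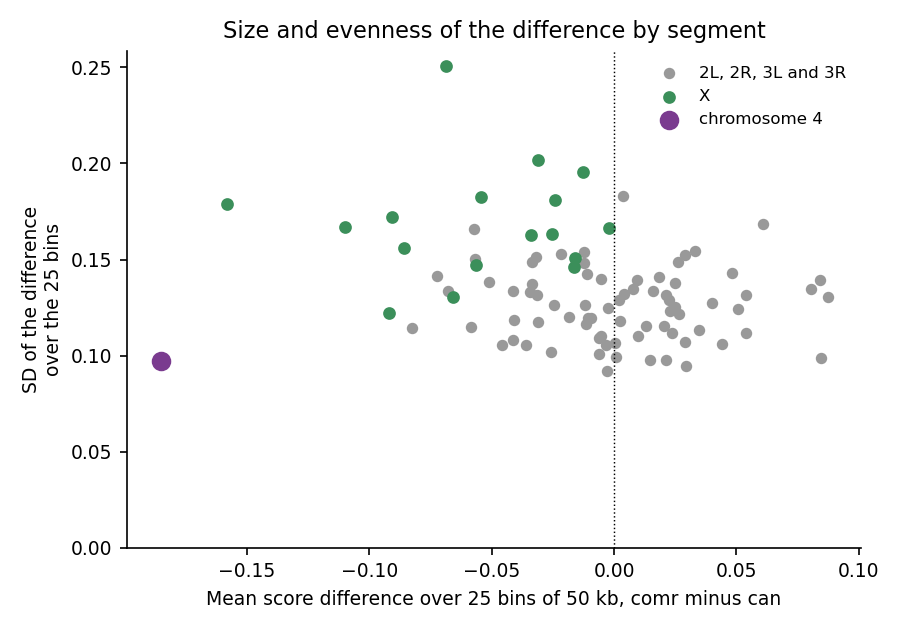
SD of the score difference over 25 bins of 50 kb (vertical axis) against its mean, comr minus can (horizontal axis), for 75 segments of 2L, 2R, 3L and 3R (grey), 17 of X (green) and chromosome 4 (purple). Chromosome 4 has the most negative mean, -0.19, with an SD of 0.097 near the low end of the range.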

How the data were processed

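H3K27me3 chromatin immunoprecipitates and inputs of can and comr testes were deposited as 1 score per row and genotype. Per the file headers, the authors divided H3K27me3 by input in bins of 1000 bp and applied a step abbreviated QN; the sorted values of both deposited profiles were identical. Per the submitters' processing notes, coordinates are those of dm3. The sources used here name no aligner, no read filter and no method of pooling replicates. Rows are 100 bp apart and overlap, so rows starting 500 bp into each kb were used, each as a 1 kb window centred on its row. Bins needed rows in at least 0.5 of their length, that is 5 windows in 10 kb and 25 in 50 kb. The highest and lowest bins, the largest differences and all joined highs were named by rule. Members, thresholds and lists were chosen with earlier results of these data known. A planned list of 20 chromosome 4 genes was not used, since the gene table follows another build. The procedure was tested on simulated data. Python 3.11.15, numpy 2.4.6, pandas 2.3.3, scipy 1.17.1 and matplotlib 3.10.9 were used. Rows at each kb, all rows, medians, other bins, thresholds and widths were tried as alternatives.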

Additional observations from a re-analysis of the deposited data

How the results depend on the processing

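No paired analysis was possible because only pooled profiles were at hand, and for the same reason no replicate could be left out. The mean difference on chromosome 4 (-0.19) was -0.15 as the median of window differences, and -0.17 to -0.20 under its other 7 alternatives, of which 4 were chosen after seeing the data: the difference of medians, and leaving out the local highs, the first and last 100 kb, or the 28 windows at -2 or lower in a profile. Its SD over bins (0.097) was 0.061 in 100 kb and 0.139 in 20 kb bins. Local highs (22) numbered 10 at 0.5 above the median bin. Enriched windows (3.97% in can, 1.95% in comr) were 1.70% and 0.57% at the top 5%, and 8.35% and 4.30% at the top 20%. In the first 50 kb the difference (-0.26) was -0.061 over 20 kb, -0.15 over 100 kb and -0.14 with rows starting at each kb. In the last 50 kb it was 0.00083, with a standard error of 0.08. It changed sign to -0.028 over 20 kb, within that standard error, and to -0.12 ± 0.07 over 100 kb, beyond it. The cause was not tested, beyond the change of windows that each setting makes. Counts of 50 kb bins lower in comr were 23 to 25 of 25 and of 10 kb bins 96 to 104. All 21 named bins and highs kept their direction with rows starting at each kb, an alternative also added later, but 8 moved by over 1.5 times, each by less than its standard error over windows. These were 0 to 30 kb (-0.26 to -0.14), 610 to 630 kb (-0.078 to -0.047), 720 to 740 kb (-0.10 to -0.051), 1110 to 1120 kb (-0.074 to -0.039), 1290 to 1310 kb (-0.13 to -0.081), 20 to 30 kb (-0.87 to -0.57), 490 to 500 kb (0.32 to 0.18) and 80 to 90 kb (0.18 to 0.040). Unknown depth and pooled replicates limit every value.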

Other observations

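At 1 and 10 kb the difference between the mutants was nearly uncorrelated between windows of chromosome 4, while the scores themselves were weakly correlated. Between windows 1 kb apart r was 0.17 in can and 0.30 in comr (1199 pairs), and between windows 10 kb apart 0.11 and 0.21 (1166 pairs). At 50 kb the correlations were 0.01 and -0.03. For the difference they were 0.01, 0.03 and -0.04 at the same distances. On 2L, 2R, 3L and 3R the difference likewise had 0.04, 0.03 and 0.006. Its near-zero correlation is thus not shown to be particular to chromosome 4. A can window correlated at 0.24 with the comr window 1 kb further on, and at 0.31 with the comr window at its own place. These correlations are across windows of 1 chromosome, which share libraries and normalization, and are given as description.

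The lowest window of each profile had a much higher score in the other profile. At 1042050 to 1043049 can had -4.23 and comr -0.53, and at 569050 to 570049 can had -0.71 and comr -4.09. A score of -2 or lower was found in 8 windows in can and 20 in comr, 28 windows in all, and none reached it in both. With so few such windows, the lack of a shared one does not show that extreme lows are particular to 1 profile. The share of such windows on the other chromosomes is not given here. Less extreme low scores were shared, as the 191 windows in the bottom 10% of both profiles show. Among high windows, at 613050 to 614049 can had 0.73 and comr 1.13, and at 626050 to 627049 they had 0.92 and 0.83. Of the 124 windows in the top 10% of chromosome 4 itself in each profile, 34 (27.4%) were the same. Over the 6 sequences, 2876 windows were in the top 10% of both profiles, out of 11588 in can and 11769 in comr. Those counts use the cutoffs for all 6 sequences, not those of chromosome 4 itself. The overlap is thus not shown to be particular to chromosome 4.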
